A study of Mus musculus with 216 samples.

Results

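Collagen genes were taken as the protein-coding genes of the mouse annotation GENCODE vM21 whose symbol is Col, digits, the letter a and digits, which gave 44 genes, Col1a1 to Col28a1, of 21938 protein-coding genes on chromosomes 1 to 19, X and Y. All domains of histone H3 lysine 9 trimethylation (H3K9me3) in the authors' deposited table that overlapped a collagen gene body by 1 bp or more were collected. There were 68, of 10229 domains on protein-coding gene bodies and 42890 in all on those chromosomes. The study followed H3K9me3, a histone mark of silenced chromatin, and the heterochromatin protein HP1β by ChIP-seq in a mouse embryonic stem cell line called dTKO. Its labels give a single genotype for every sample, Suv39h1fl/fl ; Suv39h2-/- ; Setdb1fl/fl, so floxed or deleted alleles of 3 H3K9 methyltransferase genes are shared by all times, 0 hours included, and no cells without them are described. The treatment was auxin at 100 µg/ml together with dTAG13 at 0.5 µM, compounds that send suitably tagged proteins to degradation, and times were 0, 1, 3, 12, 24 and 48 hours. The labels do not name the tagged proteins. The labels describe 216 sequencing runs, 54 for either immunoprecipitation and 54 for its input, and 9 of each of these 4 kinds at every time. Every domain of the table carries 1 of 4 words for how it decayed (fast, intermediate, slow, residual) and no sample values. Where the authors drew the lines between these classes is not stated in the labels. Without sample values no replicate error or test stands behind a class, and the binomial intervals given cover counting error only. The table has no expression values, so the labelled cell type could not be checked against marker genes.

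Collagens are secreted or membrane-bound proteins of 3 chains that wind into a triple helix, which requires glycine at regular steps along each chain. Fibrillar collagens build the rope-like fibrils of bone, skin and cartilage, network collagens the sheets of basement membranes, and the FACIT group (fibril-associated collagens with interrupted triple helices) coats fibrils. Most are made by mesenchymal and epithelial cells of differentiated tissues. H3K9me3 is written by the SUV39H and SETDB1 enzymes and is known in embryonic stem cells mainly from repeats and retroviral elements, but also covers some genes.

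Of the 44 collagen genes, 26 (59.1%) held at least 1 domain, beside 23.4% of all protein-coding genes. Collagen genes are long, with a median of 114 kb against 17.4 kb over all protein-coding genes, and length moved with the count. Among genes of 100 to 200 kb, 14 of 18 collagen genes (77.8%) held a domain, beside 58.8% of protein-coding genes of that length. At 200 kb and over it was 6 of 8 (75.0%) beside 89.0%. From 50 to 100 kb 2 of 3 held a domain, beside 38.6%. From 25 to 50 kb 3 of 10 (30.0%) held one, beside 24.9%, and under 25 kb 1 of 5 did, beside 1442 of 13117. Domains covered 242 kb of the 5.37 Mb of collagen gene bodies, or 4.52%, against 3.41% of all protein-coding gene bodies. That corresponds to 12.7 domains per Mb on collagen genes and 9.52 per Mb on protein-coding genes as a whole. Without the genes on chromosomes 8 and 11 the covered share of collagen gene bodies was 3.27%. The share of all protein-coding gene bodies without them was not computed, so this value has no like background.

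**Figure D1:**
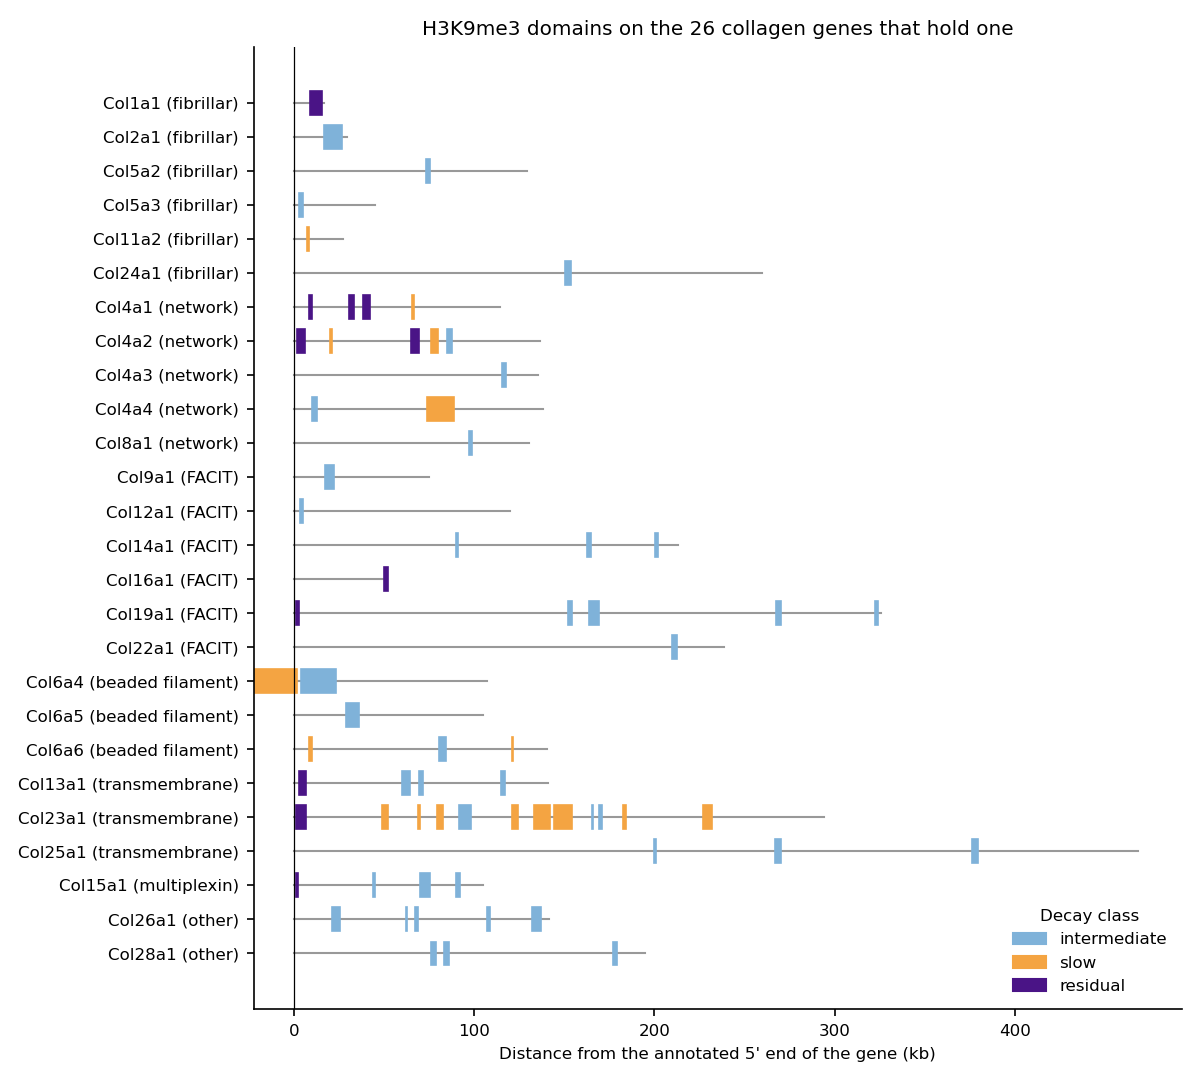
Each grey line is the body of 1 of the 26 collagen genes with a domain, drawn from its annotated 5′ end (0 kb) to its 3′ end, and the blocks are H3K9me3 domains coloured by decay class. Residual domains lie beside the 5′ end of Col4a2, Col19a1, Col13a1, Col23a1 and Col15a1, and Col23a1 carries 12 domains.

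By decay class, 41 of the 68 domains were intermediate, 16 slow and 11 residual, and 0 were fast. Intermediate domains made up 60.3% (95% exact interval 47.7 to 72.0%), beside 67.4% of domains on protein-coding gene bodies. Slow domains made up 23.5% (14.1 to 35.4%), beside 20.3%. Residual domains made up 16.2% (8.36 to 27.1%), beside 8.86%. Fast domains made up 0% (0 to 5.28%), beside 3.41%. A rougher upper limit for a count of 0, taken as 3 counts, is a share of 4.41%. The background share lies inside the collagen interval for each of these 4 classes. Residual domains were found on 8 genes, which is 30.8% of the 26 collagen genes with a domain, beside 14.5% of all protein-coding genes with a domain. These shares by gene were not matched for length or chromosome. Collagen genes with a domain had a median length of 133 kb, against 57.3 kb for all protein-coding genes with a domain. Without chromosomes 8 and 11, 4 of the 22 collagen genes with a domain held a residual domain. The collagen genes left out, Col1a1, Col4a1, Col4a2 and Col23a1, each held one. The matching share of all protein-coding genes was not computed. Whether the shares differ at equal length was not tested.

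Chromosomes 8 and 11 stand apart in the whole table: 29.3% of domains on their protein-coding genes were residual, against 4.81% on the other chromosomes. Col4a1 and Col4a2 on chromosome 8 and Col1a1 and Col23a1 on chromosome 11 together held 22 of the 68 collagen domains. On those 2 chromosomes 4 collagen domains were intermediate, 11 slow and 7 residual, so the residual share was 31.8% (13.9 to 54.9%), with the background of 29.3% inside the interval. On the other chromosomes 37 of 46 were intermediate, 5 slow and 4 residual, and the residual share was 8.70% (2.42 to 20.8%), with the background of 4.81% inside it too. The part of the chromosome in the pooled share was not tested.

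**Figure D2:**
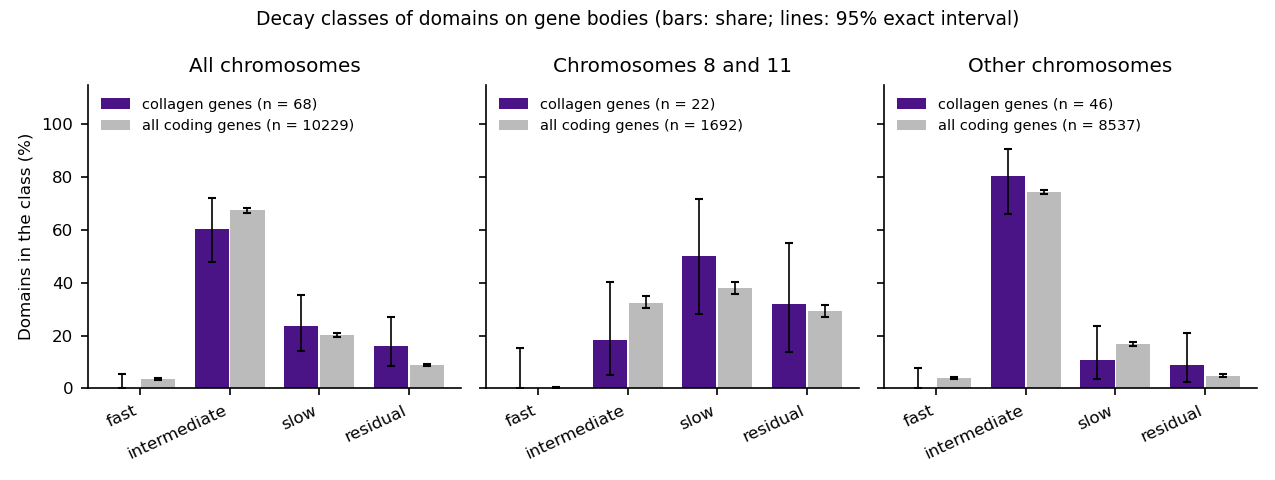
Bars give the percent of domains in each decay class on collagen genes (purple) and on all protein-coding gene bodies (grey), with 95% exact binomial intervals as lines, for all chromosomes, chromosomes 8 and 11, and the rest. The grey residual bar is 29.3% on chromosomes 8 and 11 and 4.81% elsewhere, and the collagen bars of 31.8% and 8.70% follow the same order.

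Most, though not all, residual domains of long collagen genes lay near the gene's start. Of the 9 residual domains on collagen genes of at least 100 kb, 6 (66.7%) were within 10 kb of the annotated 5′ end, beside 17.0% of residual domains on all protein-coding genes of that length. Slow and intermediate domains lay there in 4 of 53 cases (7.55%), beside 3.35%. The distances of the 6 were 1.04 kb in Col15a1, 1.08 kb in Col23a1, 1.27 kb in Col19a1, 1.40 kb in Col4a2, 2.41 kb in Col13a1 and 8.23 kb in Col4a1. The other 3 stood at 30.43 and 37.93 kb in Col4a1 and at 64.70 kb in Col4a2. Counted by gene, 6 of 26 collagen genes of at least 100 kb (23.1%) had such a domain, beside 2.89% of all protein-coding genes of that length. On chromosomes 8 and 11 it was 3 of 3, beside 13.5%, and on the other chromosomes 3 of 23 (13.0%), beside 1.85%. Counted by domain, it was 3 of 6 on chromosomes 8 and 11, beside 14.7%, and 3 of 3 elsewhere, beside 19.1%. Col4a1 and Col4a2, both among the 6 genes, start 21 bp apart and are thus not independent cases. This pair also holds 5 of the 9 residual domains. The minimum length and the distance limit were chosen after the positions had been seen.

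**Figure D3:**
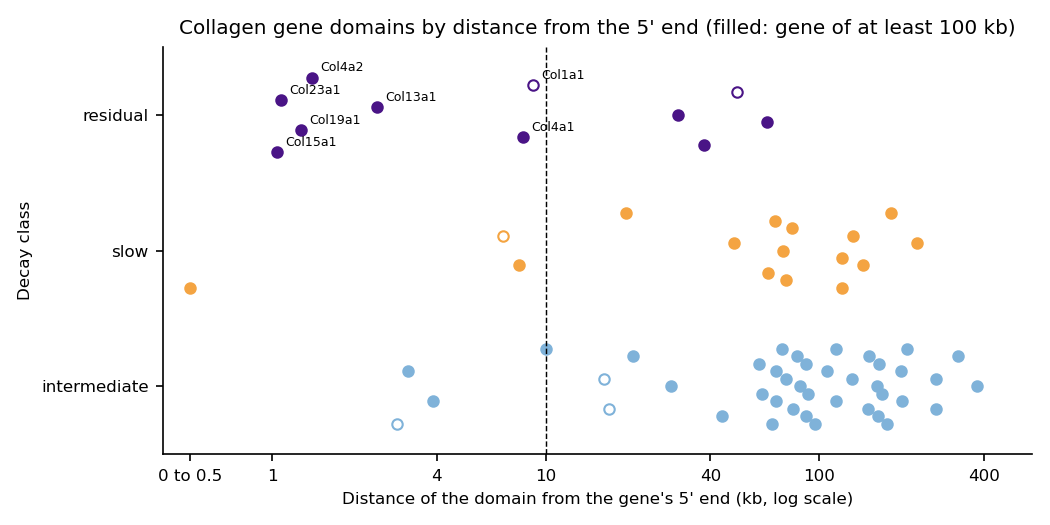
Points are the 68 domains on collagen genes by decay class, placed by the distance of the nearest edge from the gene's 5′ end on a log scale, with filled points for genes of at least 100 kb and the dashed line at 10 kb. The 6 filled residual points left of the line are named, and the slow and intermediate points lie mostly to its right.

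None of these 6 domains covered the start itself. All were intronic, in the first intron of Col4a1, Col13a1, Col19a1 and Col23a1, intron 2 of Col15a1 and intron 3 of Col4a2, and were 1.2 to 5.7 kb wide. The starts of these genes were rich in CpG, the dinucleotide that marks CpG islands. Over 500 bases to either side of the 5′ end, the ratio of observed to expected CpG was 0.874 in Col23a1, 0.785 in Col4a2, 0.775 in Col4a1, 0.757 in Col15a1, 0.747 in Col13a1 and 0.725 in Col19a1. The other 20 collagen genes of at least 100 kb had a median ratio of 0.450, from 0.0844 in Col28a1 to 0.821 in Col5a1. The median over all protein-coding genes of at least 100 kb was 0.685, and 0.708 over the 72 of them with a residual domain within 10 kb of the 5′ end. Inside the 6 domains the ratio was lower, between 0.126 in Col23a1 and 0.392 in Col19a1. This was not particular to the domains. In the window at 7.25 kb from the 5′ end, outside the residual domains, the 6 genes had ratios from 0.104 in Col19a1 to 0.295 in Col4a2. Domains on all protein-coding gene bodies had a median of 0.236. Ratios in the range of the 6 were also found in Col12a1 (0.754), with an intermediate domain 3.13 kb from its 5′ end, in Col5a1, with none, and in Col27a1 (0.730). Col27a1 has no domain on its body, but a residual domain of 2.7 kb ends 104 bp before its 5′ end. Among shorter collagen genes, Col1a1 (16.8 kb) also had a residual domain within 10 kb, 8.98 kb from its 5′ end. Its ratio was 0.300, below that of each of the 6.

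**Figure D4:**
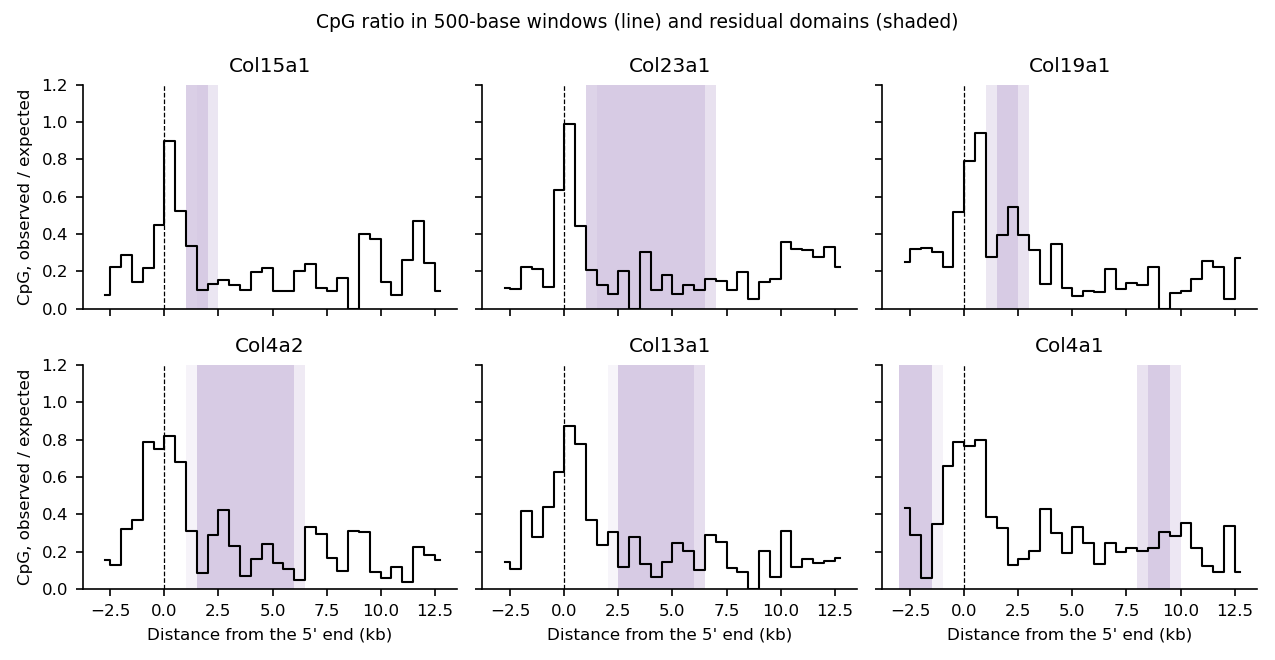
The line is the ratio of observed to expected CpG in windows of 500 bases around the 5′ end (dashed, 0 kb) of the 6 long collagen genes with a residual domain within 10 kb, and shading marks residual domains, paler where a window is partly covered. The ratio is highest within 1 kb after the 5′ end of each gene and has fallen where the shaded domains start. In Col4a1 it fell well before the domain at 8.23 kb, and in Col19a1 it reached 0.543 inside the domain. Unshaded windows further along the genes are low as well. The shading left of Col4a1 is the domain of its neighbour Col4a2.

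The contrast between the start and the intron at the domain edge is shown for the 3 genes whose residual domain is nearest to the 5′ end. For each, the 250 bases before the RefSeq transcription start (RefSeq promoter table, build GRCm38.p6) and the 300 bases of the domain at its edge nearest the start are given on the gene's strand, with CG dinucleotides in capitals.
Col15a1 promoter, chr4:47207762-47208011, + strand: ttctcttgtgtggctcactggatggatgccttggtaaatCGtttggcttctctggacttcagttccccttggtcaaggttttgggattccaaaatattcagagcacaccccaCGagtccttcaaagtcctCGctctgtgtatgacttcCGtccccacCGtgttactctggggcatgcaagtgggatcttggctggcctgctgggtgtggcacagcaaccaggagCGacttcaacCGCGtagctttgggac
Col15a1 domain edge, chr4:47209201-47209500, + strand: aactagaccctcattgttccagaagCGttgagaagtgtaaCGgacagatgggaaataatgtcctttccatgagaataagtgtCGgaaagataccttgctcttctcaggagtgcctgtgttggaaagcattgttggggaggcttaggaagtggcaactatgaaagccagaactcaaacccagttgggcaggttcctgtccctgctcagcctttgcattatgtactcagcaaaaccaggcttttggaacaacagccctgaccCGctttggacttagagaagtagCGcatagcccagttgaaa
Col23a1 promoter, chr11:51289670-51289919, + strand: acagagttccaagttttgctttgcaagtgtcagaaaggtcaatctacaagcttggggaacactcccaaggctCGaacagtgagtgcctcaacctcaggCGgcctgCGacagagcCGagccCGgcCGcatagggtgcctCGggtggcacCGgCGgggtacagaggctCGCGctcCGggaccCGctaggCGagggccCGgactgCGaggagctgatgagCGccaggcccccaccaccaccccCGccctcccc
Col23a1 domain edge, chr11:51291001-51291300, + strand: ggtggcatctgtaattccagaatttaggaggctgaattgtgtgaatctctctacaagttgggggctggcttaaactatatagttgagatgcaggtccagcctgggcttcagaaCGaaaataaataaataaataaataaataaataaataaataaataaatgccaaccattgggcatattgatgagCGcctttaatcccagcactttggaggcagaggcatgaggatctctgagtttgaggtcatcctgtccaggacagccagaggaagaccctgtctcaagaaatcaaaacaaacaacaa
Col19a1 promoter, chr1:24587438-24587687, - strand: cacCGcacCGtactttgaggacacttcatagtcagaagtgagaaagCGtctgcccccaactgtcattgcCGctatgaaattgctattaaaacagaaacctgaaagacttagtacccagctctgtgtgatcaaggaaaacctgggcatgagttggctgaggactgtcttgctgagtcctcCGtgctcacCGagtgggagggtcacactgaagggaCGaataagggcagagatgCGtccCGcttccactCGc
Col19a1 domain edge, chr1:24585901-24586200, - strand: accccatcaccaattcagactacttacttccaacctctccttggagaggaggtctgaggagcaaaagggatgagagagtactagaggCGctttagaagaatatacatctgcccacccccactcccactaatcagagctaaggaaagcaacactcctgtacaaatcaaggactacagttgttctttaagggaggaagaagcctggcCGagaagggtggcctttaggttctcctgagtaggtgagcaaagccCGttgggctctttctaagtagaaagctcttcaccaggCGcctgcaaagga
The promoter stretches held 8, 18 and 10 CG dinucleotides in Col15a1, Col23a1 and Col19a1, and the longer domain stretches 5, 2 and 4. In the same order, the ratios of observed to expected CpG were 0.446, 0.662 and 0.592 against 0.295, 0.163 and 0.216. GC content differed too, at 53.6, 66.0 and 52.0% against 47.7, 40.7 and 49.7%.

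Among the 11 fibrillar genes, 6 held a domain, with 1 domain each. Col1a1, which encodes the main chain of type I collagen in bone and skin, was the collagen gene with the largest share of its body in domains, 39.2%. Its single domain was residual, 6.6 kb wide (chr11:94945201-94951800, mm10), began 8.98 kb from the 5′ end and ran over exons 30 to 51 of 51. Col2a1, the cartilage collagen, was second with 35.1%: an intermediate domain of 10.2 kb (chr15:97978201-97988400) covered exons 23 to 50 of 54. Both domains thus lay over exons that encode the triple helix, and the sequence of those exons shows the repeat. All 28 coding exons wholly inside the Col2a1 domain carried a glycine codon in each 3 codons, always in the same register, and 18 of 22 inside the Col1a1 domain did. Outside the domains the repeat was present in 16 of 26 coding exons of Col2a1 and in 25 of 29 of Col1a1. The 4 inside the Col1a1 domain that lacked it are exons 48 to 51, the last exons of Col1a1, which encode mainly the C-propeptide that is cut off outside the cell.

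The first 3 exons of 54 bases in each domain that start in frame are shown for this repeat, with glycine codons (GGN) in capitals.
Col1a1 exon 34, chr11:94946574-94946627, + strand: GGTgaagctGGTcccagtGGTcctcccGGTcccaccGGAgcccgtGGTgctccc
Col1a1 exon 35, chr11:94946776-94946829, + strand: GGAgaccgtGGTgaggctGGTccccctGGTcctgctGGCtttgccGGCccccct
Col1a1 exon 37, chr11:94947270-94947323, + strand: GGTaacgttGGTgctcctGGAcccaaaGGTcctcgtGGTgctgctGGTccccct
Col2a1 exon 24, chr15:97987668-97987721, - strand: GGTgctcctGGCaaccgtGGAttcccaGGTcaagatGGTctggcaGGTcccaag
Col2a1 exon 26, chr15:97987293-97987346, - strand: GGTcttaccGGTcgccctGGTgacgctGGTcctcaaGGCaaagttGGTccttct
Col2a1 exon 28, chr15:97986308-97986361, - strand: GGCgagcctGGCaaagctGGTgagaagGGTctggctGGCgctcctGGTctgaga
Each exon holds 6 glycine codons among 18. In the 2 domains, 100.0% of sampled 31-base words in Col1a1 and 99.0% in Col2a1 occurred once in the genome. The Col1a1 domain held 2409 coding bases and the Col2a1 domain 2178, the largest numbers in any domain on a collagen gene.

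The other fibrillar genes carried small domains. Col5a2, a chain that limits fibril width, had an intermediate domain of 2.1 kb over exon 7, and Col5a3 an intermediate domain of 1.8 kb in intron 1, 2.87 kb from its 5′ end. Col11a2, a cartilage chain, had a slow domain of 1.5 kb over exons 7 and 8. Col24a1 had an intermediate domain of 3.0 kb in intron 31. Col1a2, which encodes the partner chain of Col1a1, had none, nor had Col3a1, Col5a1, Col11a1 and Col27a1.

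Of the 9 network genes, 5 held 13 domains, and the type IV chains of basement membranes are arranged as 3 head-to-head pairs that differed widely. Col4a1 and Col4a2, the chains found in nearly all basement membranes, start 21 bp apart on chromosome 8 and held 9 domains, of which 5 were residual, 3 slow and 1 intermediate, over 10.9% of their 251 kb. Col4a3 and Col4a4, chains of the kidney filter, start 72 bp apart on chromosome 1 and held 3 domains, 2 intermediate and 1 slow, over 7.13% of 274 kb. Col4a5 and Col4a6 start 1309 bp apart on chromosome X and held 0 domains on 523 kb. The nearest domain was 53.0 kb from Col4a5 and 267.4 kb from Col4a6. Both genes are over 200 kb long, a range in which 89.0% of protein-coding genes of all chromosomes held a domain. Residual domains made up 23.4% of domains on protein-coding genes of chromosome 8 and 7.08% of those of chromosome 1. For slow domains the shares were 41.2% and 15.1%. The part of the chromosome in the difference between the pairs was not tested.

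Col4a1 carried 3 of the residual domains, all in the first intron: 1.5 kb at chr8:11303101-11304600, 2.7 kb at chr8:11279701-11282400 and 4.2 kb at chr8:11270701-11274900. The domain of 2.7 kb ended 0.04 kb from the start of a shorter protein-coding transcript and was the only residual collagen domain at a promoter, taken as 1 kb around any protein-coding start. A slow domain of 1.5 kb lay over exons 3 and 4. Col4a2 had residual domains of 4.8 kb in intron 3 (chr8:11314201-11319000) and 4.5 kb in intron 4 (chr8:11377501-11382000), slow domains of 1.5 and 3.9 kb, and an intermediate domain of 2.7 kb over exons 5 and 6. In both genes the residual domains came before the exons of most of the chain.

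Col4a4 held a slow domain of 15.0 kb over exons 21 to 23 (chr1:82498201-82513200), in which 36.0% of sampled 31-base words had at least 100 copies in the genome. Its other domain, intermediate and 2.4 kb wide, lay 10.05 kb from the 5′ end, just outside the 10 kb limit used above. All of its sampled 31-base words occurred once in the genome. Col4a3 had an intermediate domain of 2.1 kb in intron 43. Col8a1, a short-chain collagen of vessel walls and the cornea, had an intermediate domain of 1.8 kb in intron 2, and its relatives Col8a2 and Col10a1 had none.

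FACIT genes held 12 domains on 6 of 9 genes, 10 intermediate and 2 residual, none slow. Col19a1 had 5 over 14.1 kb: a residual domain of 1.5 kb (chr1:24584701-24586200) by the 5′ end and 4 intermediate ones, 2 in intron 14, 1 over exons 28 to 30 and 1 over exon 51, the last. Col16a1 had a residual domain of 2.4 kb at the opposite end, over exons 68 to 70 of 70 (chr4:130097701-130100100), with 66.0% of it inside the gene. Col14a1 had 3 intermediate domains, in introns 14 and 45 and over exon 38. The first of these was repeat-masked over 100.0% of its length and held 0% unique 31-base words.

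Col9a1, a chain of the collagen on cartilage fibrils, had an intermediate domain of 4.8 kb over exons 6 to 10 that also covered the start of a shorter transcript. Col12a1 and Col22a1, collagens of tendon and of tissue junctions, had intermediate domains of 1.8 kb over exon 2 and of 2.4 kb over exons 53 and 54. Col9a2, Col9a3 and Col20a1 had none.

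The 6 beaded filament genes of type VI collagen split by chain, and the split is also one by length. Col6a1, Col6a2 and Col6a3, which form the common type VI collagen, held none. Col6a4, Col6a5 and Col6a6, neighbours on chromosome 9 that encode alternative long chains, held 6 domains, 3 intermediate and 3 slow. These long-chain genes are each 100 to 200 kb long, a range in which 58.8% of protein-coding genes held a domain. Col6a3 falls in the range of 50 to 100 kb, with 38.6%, and Col6a2 in that of 25 to 50 kb, with 24.9%. Col6a1 is under 25 kb, where 1442 of 13117 held one. The part of length in the split was not tested. Col6a4 had the widest domains of any collagen gene: a slow domain of 24.0 kb over its 5′ end and exon 1 (chr9:106095301-106119300), with 6.18% of it inside the gene, and an intermediate domain of 19.2 kb over exons 2 to 5 (chr9:106073701-106092900). The wider one covered the start itself, and the other held 1876 coding bases. Col6a5 had an intermediate domain of 7.2 kb over exons 7 to 10, with 1575 coding bases. Col6a6 had slow domains of 0.6 and 1.8 kb in introns 33 and 1 and an intermediate domain of 4.2 kb over exon 20. Col7a1, the anchoring fibril gene of skin, had none.

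Transmembrane collagens held 19 domains on 3 of 4 genes, over 7.62% of their length. Col23a1 accounted for 12 of them and 51.6 kb, or 17.6% of its 294.0 kb. Its residual domain (chr11:51291001-51296700) was followed along the gene by 8 slow and 3 intermediate ones, of which 10 lay wholly in intron 2 and 1, slow and 5.1 kb wide, over exon 3. The widest, slow at 9.6 and 9.0 kb, were neighbours near the middle of the gene. Col13a1, a collagen of neuromuscular junctions, had a residual domain of 3.9 kb in intron 1 (chr10:61972801-61976700) and 3 intermediate ones, over exon 5, over exons 28 to 31 and in intron 3. Col25a1, the longest collagen gene at 468.4 kb, had 3 intermediate domains in introns 2, 4 and 12 over 1.73% of its length. Col17a1, the collagen of hemidesmosomes, had none.

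The multiplexin Col15a1 had a residual domain of 1.2 kb (chr4:47209201-47210400) and 3 intermediate ones, in intron 5, over exons 15 to 20 and over exons 30 to 32. Its relative Col18a1, the source of endostatin, had none. Col26a1 had 5 intermediate domains, 4 in introns 1 and 3 and 1 over exons 9 to 11, on 9.76% of its body. Col28a1 had 3, in intron 13 and, with 549 coding bases, over exon 32. Of the 18 collagen genes with no domain, the longest were Col4a6 at 308.7 kb, Col4a5 at 213.8 kb, Col11a1 at 190.2 kb, Col5a1 at 153.1 kb and Col27a1 at 121.0 kb, and the median was 37.5 kb, against 133 kb for those with a domain.

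By position, 25 of the 68 domains (36.8%) overlapped an exon of a protein-coding transcript, beside 29.0% of domains on protein-coding gene bodies. Promoters were overlapped by 3 (4.41%), beside 10.0%, namely those of Col4a1, Col6a4 and Col9a1. On genes of at least 100 kb the exonic count was 20 of 62 (32.3%), beside 11.7%. Collagen genes of that length also have more exons, 25.5 per 100 kb against 8.48 in protein-coding genes. Counted in bases, exons made up 3.84% of the bodies of collagen genes of at least 100 kb and 3.40% of the bases in their domains. By class, 18 of 41 intermediate (43.9%), 5 of 16 slow (31.2%) and 2 of 11 residual domains (18.2%) were on an exon. Over all protein-coding genes these shares were 23.8%, 29.3% and 55.0%, and the order of the classes was thus the reverse there, with no test of the difference. On genes of at least 100 kb 0 of 9 residual collagen domains touched an exon, beside 25.9% of residual domains on all protein-coding genes of that length. A count of 0 of 9 allows a share of up to 33.3%, so this difference is within counting error.

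The domains on collagen genes were mostly unique sequence. Their median repeat-masked share was 17.1%, against 49.6% for domains on protein-coding gene bodies and 71.3% for all domains. A median of 96.5% of their 31-base words, sampled every 100 bases, occurred once in the genome, against 66.7% and 47.6%. The difference was present in the intermediate class, at 24.9% masked against 53.3%, and in the slow class, at 17.2% against 64.0%. In the residual class it was 10.3% against 11.8%. On chromosomes 8 and 11 collagen domains had a median masked share of 14.9% against 23.6%, and on the others 24.5% against 56.3%. A tRNA primer binding site, the 18-base mark of retroviral elements, was found in 0 of 68, beside 2.32%, where the limit of 3 counts is 4.41%. Median GC content was 47.4% against 44.2% and median width 2.55 kb against 2.70 kb. The 11 residual domains held 94.9 to 100.0% unique words.

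**Figure D5:**
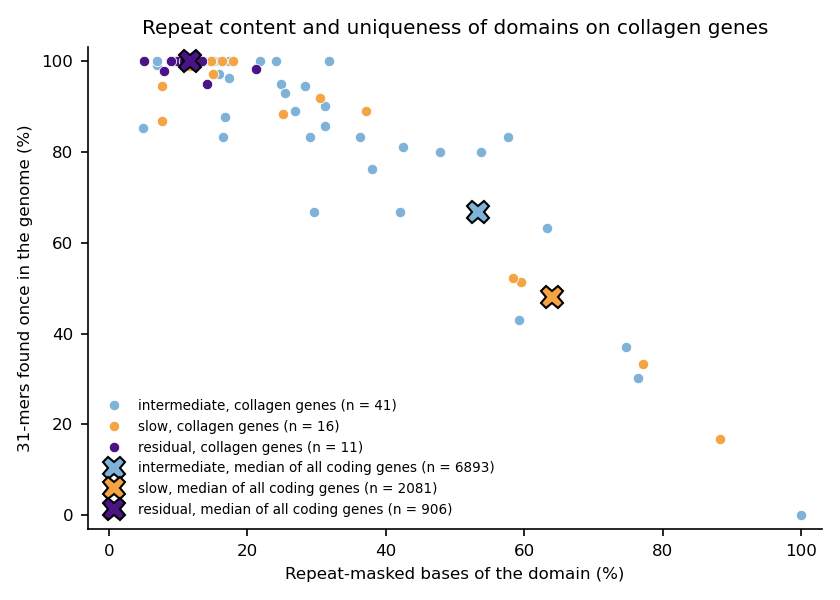
Each point is 1 of the 68 domains on collagen genes, by the percent of its bases that are repeat-masked and the percent of its 31-base words found once in the genome, coloured by decay class; crosses are the medians of all domains on protein-coding genes. Residual points sit at 94.9% unique words or more, and most intermediate and slow points lie left of the crosses of their class, at 53.3% and 64.0% masked.

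Genes that make, bind and break down collagen were counted the same way from 4 lists. Of 31 modifying and processing enzymes, 10 (32.3%) held 15 domains, beside 24.9% of protein-coding genes of 25 to 50 kb, the range that holds the list's median length. Of these domains, 6 were intermediate, 5 slow, 3 residual and 1 fast. All 3 residual ones lay on Adamts2, the protease that removes the N-propeptide of fibrillar procollagens, the first of them 1.92 kb from its 5′ end. Adamts2 is on chromosome 11, where 35.6% of domains on protein-coding genes were residual. Serpinh1, which encodes the collagen chaperone HSP47, had a slow domain over 5.62 kb of its 7.86 kb. Tll2, a relative of the C-propeptide protease, had a slow domain of 11.4 kb, and Pcolce2, an enhancer of that cleavage, a fast domain of 1.50 kb.

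Of 10 collagen receptors, 5 (50.0%) held 12 domains, 7 intermediate, 4 slow and 1 fast. The list's median length was 59.1 kb, and 38.6% of protein-coding genes of 50 to 100 kb held a domain. The fast domain, of 2.10 kb, was on Gp6, the platelet collagen receptor, and Ddr2, a receptor kinase for fibrillar collagen, had a slow domain of 8.70 kb. Of the 7 matched collagen-degrading proteases, 2 (28.6%) held a slow domain each, beside 23.4% of all protein-coding genes, Mmp1b over 10.5 kb and Mmp2 over 1.02 kb. Of 30 other matrix genes, 13 (43.3%) held 26 domains, of which 21 were intermediate, 2 slow, 2 residual and 1 fast. Their median length was 66.0 kb, so the share was near the 38.6% of that range. Tnxb, a tenascin, had a residual domain 1.37 kb from its 5′ end. Lama1, a laminin chain, had a fast domain of 1.80 kb over an exon.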

How the data were processed

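Per the submitters' processing notes, the authors' tools included bedtools, deepTools, SAMtools 1.1 and Bowtie2 2.3.4.1, and builds named there are mm10, dm6, mm9 and GRCm38. The labels do not say how domains were called or scaled to the Drosophila spike-in (1.5 µg with 20 µg of chromatin). The deposited domain table holds coordinates on a grid of 300 bp and a class in words, no depth or sample values. Which number in the run titles marks the biological repeat is not settled, which touches no value here. Coordinates were read as mm10 against GRCm38.p6, and no domain passed a chromosome end. Python 3.11.15, numpy 2.4.6, scipy 1.17.1, numba 0.67.0 and matplotlib 3.10.9 were used for overlaps, tested on simulated intervals, 31-mer counts, and 95% Clopper-Pearson intervals. Exons, introns and 5′ ends come from GENCODE vM21, with exon numbers from the transcript with the best APPRIS tag, then the longest coding sequence. The members, the collagen classes and the 4 lists were chosen with earlier results of these data known. Every collagen gene with a domain was named, and of the listed genes up to 3 with the most bases per class were eligible. Mmp1a had no match. Comparisons are descriptions without tests. The alternatives varied overlap, gene ends, domain width, joining, chromosomes, uniqueness and exon definition.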

Additional observations from a re-analysis of the deposited data

How the results depend on the processing

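Leaving out chromosomes 8 and 11 changed the class shares: 80.4% of the remaining collagen domains were intermediate and 10.9% slow. Residual domains were held by 4 of 22 collagen genes with a domain, in place of 8 of 26, with no matching background computed. Of residual domains on long genes, 3 of 3, in place of 6 of 9, lay within 10 kb of the 5′ end (background 19.1%). The cause was not tested. The other 90 values recomputed under alternatives stayed within the interval of the share or within 1.5 times the count. Alternatives for the distance from the 5′ end were chosen after seeing the data: within 5 kb the count was 5 of 9 (background 13.5%), within 20 kb 6 of 9 (20.5%), from the nearest protein-coding start 8 of 9 (25.3%), and on genes of any length 7 of 11 (45.0%). The number of collagen genes with a domain ran from 22 to 27. No paired analysis was possible because the table holds 1 class per domain and no sample values. Domains of a gene are not independent, and 12 of the 68 lie on Col23a1 alone. The printed intervals treat all domains as independent, so the uncertainty of a class share may be wider than its interval. HP1β and input were not analysed here.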
